A study of Mus musculus with 6 samples.

Results

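The genes examined here are those that carry the driver of the CBP-ifKO model and those that surround it: Esr1, part of which is built into the tamoxifen-inducible recombinase creERT2, Camk2a, whose promoter drives that recombinase, and 7 genes that lie beside Camk2a on mouse chromosome 18, namely Arsi, Slc6a7, Tcof1, Cd74, Rps14, Cdx1 and Pdgfrb. They were taken by symbol from the table of raw gene counts, where all 9 were found among 55471 genes. Of these 9 members, 8 passed the filter on low counts, as did 17981 genes in all, and Cdx1 did not. Total RNA of the hippocampus was sequenced in 6 libraries, 3 from Control mice and 3 from CBP-ifKOs, and each level below comes from those 6 libraries.

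CBP-ifKOs carried floxed Crebbp alleles (Crebbp_flox) together with the Camk2a_creERT2 driver. Mice of both groups were C57BL/6, 3 to 6 months old, and had received tamoxifen 5 times by the intragastric route on alternate days, from a solution of 20 mg/mL in corn oil. The treatment protocol describes Control mice as tamoxifen-treated littermates without the driver, whereas the description field of the 3 Control samples lists Camk2a_creERT2. Every driver-positive library is therefore also a Crebbp knockout library if the protocol holds, and the presence of the transgene and the loss of CBP cannot be told apart in this comparison. The study's methods describe the recombinase as restricted to the forebrain and, for 1 of its CBP experiments, each sample as pooled hippocampi of several females. Nothing in the sample labels says which animals went into which library, so the p-values below measure the spread between these libraries, which may be partly technical.

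Camk2a encodes the alpha subunit of the calcium/calmodulin-dependent kinase II, one of the most abundant proteins of excitatory synapses, and its promoter is widely used to confine a recombinase to forebrain excitatory neurons. In creERT2 the recombinase is fused to a mutated hormone-binding domain of the estrogen receptor, so that it enters the nucleus only when tamoxifen is bound. Such drivers are often made from a bacterial artificial chromosome that holds the promoter with long flanking stretches of DNA, and genes on those stretches are then present in extra copies. The study's text places Arsi, next to the Camk2a promoter, on the artificial chromosome used for this strain, and the Esr1 reads in question on the exons used in the fusion. It also reports Arsi and Esr1 as the only genes changed in p300-ifKOs, which carry the same driver. The study attributes their rise to the driver transgene, and its p300-ifKO libraries were not used here. The comparison therefore addresses which genes of the neighbourhood followed the transgene.

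Of the 9 members, Esr1 and Arsi rose in CBP-ifKOs, with no overlap between the groups, and none fell. Camk2a itself and its other measured neighbours, Slc6a7, Tcof1, Cd74, Rps14 and Pdgfrb, did not pass the test, and their groups overlapped. Among all genes tested 6.39% were called at an edgeR adjusted p under 0.05, with 1.4% called higher and 4.99% called lower in CBP-ifKOs. Groups did not overlap for 25.6% of all genes, 11.8% with CBP-ifKOs higher, so that a lack of overlap alone was common. A log2 fold change above 2 was found for 2 genes, or 0.0111% of those tested, and these were Esr1 and Arsi.

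Total counts ran from 10199008 to 14950257 per library, the share of counts in mitochondrial genes from 6.95% to 8.73%, and the biological coefficient of variation was 6.81%. Crebbp, the targeted gene, was at 208.6, 156.4 and 208.5 CPM (read counts scaled to a common library size by the trimmed mean of M-values, TMM) in Control and at 108.6, 87.1 and 99.4 CPM in CBP-ifKOs, or 51.5% of the Control mean (log2 fold change -0.96, edgeR adjusted p 3.63e-05, SE 0.10). Markers of excitatory neurons summed to 1888 to 2018 CPM in Control and 1641 to 1913 CPM in CBP-ifKOs. All 8 were tested, 2 were higher and 6 lower, and Nrgn was called lower (log2 fold change -0.73, edgeR adjusted p 0.000176). Of 9 tested markers of inhibitory neurons, 2 were higher and 7 lower, and Slc32a1 and Sst were called lower. Among all genes tested 4.99% were called lower. In whole tissue, fewer cells of a type and less RNA per cell cannot be told apart.

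Esr1 (ENSMUSG00000019768) encodes estrogen receptor alpha, a nuclear receptor for estradiol, and lies on the forward strand of chromosome 10, from 4611593 to 5005614 in GRCm38. Its counts were 67, 73 and 57 in Control and 691, 1056 and 773 in CBP-ifKOs. After scaling, these were 6.29, 6.27 and 5.65 CPM in Control and 67.0, 69.4 and 63.6 CPM in CBP-ifKOs. The 3 CBP-ifKO libraries lay close together and far above the 3 Control libraries, whose own values were within 1 CPM of each other. The mean rose from 6.07 ± 0.36 to 66.7 ± 2.91 CPM (SD, n = 3), and the fold change fitted by edgeR was 10.9 (95% interval 9.50 to 12.6). On the log2 scale the difference was 3.45 (SE 0.097, 95% interval 3.25 to 3.66, edgeR adjusted p 7.90e-13), the largest rise among the 17981 genes tested. None of the 3 Control libraries, whose description lists the driver, was near the CBP-ifKO level of Esr1. Since Esr1 is itself the gene examined, its counts are no separate check of the driver status of Control. Because the counts cover the whole gene, with 13661 bases of exon, reads from the fusion and from the endogenous gene were not separated.

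Arsi (ENSMUSG00000036412) encodes arylsulfatase I, a member of the sulfatase family of hydrolases, and lies on the forward strand of chromosome 18, from 60911780 to 60918561, with its start 13.8 kb upstream of the Camk2a start. Its counts were 5, 11 and 9 in Control and 51, 71 and 77 in CBP-ifKOs. The scaled levels were 0.469, 0.945 and 0.893 CPM in Control and 4.94, 4.67 and 6.34 CPM in CBP-ifKOs. Each CBP-ifKO library was therefore well above each Control library, although all 3 Control values rest on 11 counts or fewer. The mean rose from 0.769 ± 0.261 to 5.32 ± 0.895 CPM (SD, n = 3), and the fold change fitted by edgeR was 6.79, with a 95% interval from 4.52 to 10.2. The log2 fold change was 2.76 (edgeR adjusted p 2.82e-05, SE 0.28), second in size after Esr1 among the rises of all genes tested. The interval of Arsi on the log2 scale, 2.18 to 3.35, is wide beside that of Esr1, and Arsi has fewer counts. No exon of Arsi overlaps an exon of another annotated gene.

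Camk2a (ENSMUSG00000024617) spans 60925618 to 60988152 on the forward strand of chromosome 18. It had 21638, 19707 and 21096 counts in Control and 22758, 29633 and 24858 counts in CBP-ifKOs. Scaled, it was at 2031, 1693 and 2092 CPM in Control and at 2205, 1948 and 2046 CPM in CBP-ifKOs. The lowest value was Control replicate 2 and the highest CBP-ifKO replicate 1, with the other 4 libraries interleaved. The means were 1939 ± 215 and 2066 ± 130 CPM (SD, n = 3), with a log2 fold change of 0.09 (edgeR adjusted p 0.516, SE 0.073). The 95% interval of the difference ran from -4.21% to 18.6%. A fold change like that of Esr1 or Arsi lies outside it, whereas a rise of some percent does not. In CPM, Esr1 rose by 60.6 and Arsi by 4.55 on the mean, less than the 127 between the Camk2a means. A rise of such an amount in Camk2a was therefore not excluded. With the replicate number as a block and offsets for GC content and gene length together, Camk2a was past the threshold at a log2 fold change of 0.17 (edgeR adjusted p 0.0240), and leaving out single libraries gave 0.012 to 0.15.

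**Figure D1:**
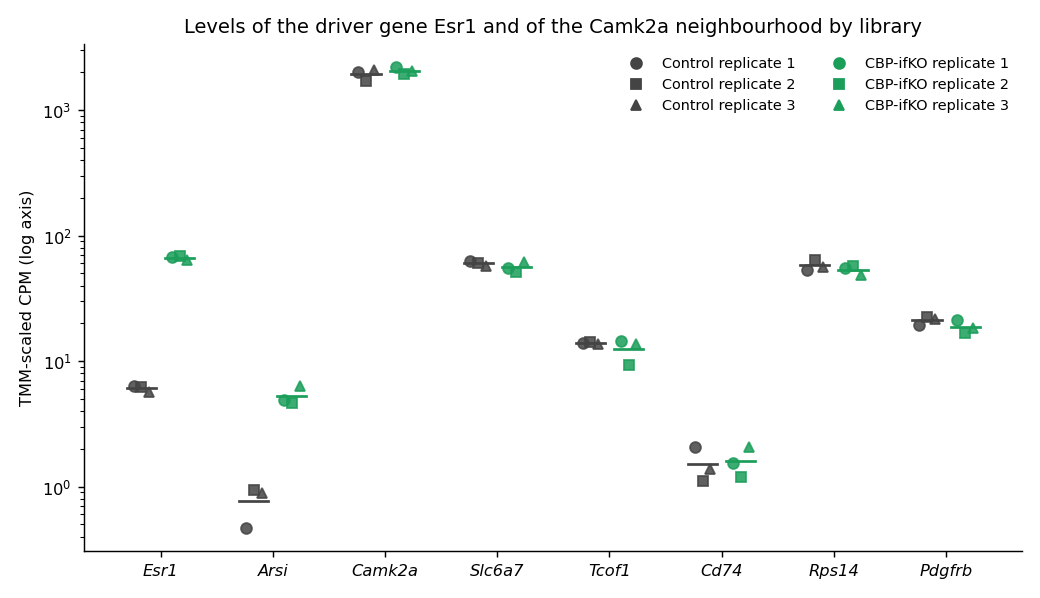
Level of each of the 8 members that passed the filter, in TMM-scaled CPM on a log axis, with 1 symbol per library and a bar at the mean of the 3 libraries of a group. Esr1 and Arsi are the 2 members whose green CBP-ifKO symbols all lie above the grey Control symbols, and Camk2a lies between 1693 and 2205 CPM in both groups. Cdx1 had 0 counts and is not drawn.

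Upstream of Arsi lie Tcof1, Cd74 and Rps14, at distances of 76.6, 121.8 and 178.5 kb from the Camk2a start. Tcof1 (ENSMUSG00000024613, reverse strand, 60813755 to 60848971) encodes treacle, a nucleolar protein needed for the transcription of ribosomal DNA. It was at 13.9, 14.1 and 13.7 CPM in Control and at 14.3, 9.33 and 13.6 CPM in CBP-ifKOs. CBP-ifKO replicate 2 was lower than the other 5 libraries, which differed by less than 1 CPM. The log2 fold change of -0.18 (SE 0.15, 95% interval -0.49 to 0.13) did not pass the test (edgeR adjusted p 0.525), and without that library it was 0.013.

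Cd74 (ENSMUSG00000024610, forward strand, 60803848 to 60812652) encodes the invariant chain that guides MHC class II molecules through the cell, and in brain it is mostly made by macrophages and reactive microglia. Its levels were 2.07, 1.12 and 1.39 CPM in Control and 1.55, 1.18 and 2.06 CPM in CBP-ifKOs. These rest on 49 counts in all 3 Control libraries and 59 in all 3 CBP-ifKO libraries, and the groups overlapped almost completely. The log2 fold change was 0.055 (edgeR adjusted p 0.953, SE 0.32) with a 95% interval from -0.63 to 0.74, so that changes inside that range were not excluded. It turned to -0.13 without Control replicate 2 and to -0.17 without CBP-ifKO replicate 3. Cd74 shares 12 exon bases, 0.715% of its length, with Mir5107 on the same strand, and is the single member with such an overlap.

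Rps14 (ENSMUSG00000024608, forward strand, 60747098 to 60778546) encodes a protein of the small ribosomal subunit. It was at 52.9, 64.3 and 56.4 CPM in Control and at 54.8, 57.4 and 48.6 CPM in CBP-ifKOs. Control replicate 2 was the highest and CBP-ifKO replicate 3 the lowest, with the groups overlapping between them. The means were 57.9 ± 5.87 and 53.6 ± 4.51 CPM (SD, n = 3), with a log2 fold change of -0.11 (SE 0.085, 95% interval -0.29 to 0.069, edgeR adjusted p 0.501). It was -0.016 without Control replicate 2, -0.034 without CBP-ifKO replicate 3, -0.17 without Control replicate 1 and -0.009 with offsets for GC content and length. Ribosomal protein genes have processed copies elsewhere in the genome, and reads shared with such a copy may be lost or moved in counting, so the level of Rps14 is less certain than its counts alone would give.

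Downstream of Camk2a, Slc6a7 (ENSMUSG00000052026, reverse strand, 60995380 to 61014222) encodes the sodium-dependent proline transporter of excitatory terminals, with its start 88.6 kb from that of Camk2a. Its levels were 63.0, 60.3 and 57.3 CPM in Control and 55.2, 51.7 and 61.8 CPM in CBP-ifKOs. CBP-ifKO replicates 1 and 2 were below all Control libraries and CBP-ifKO replicate 3 was within their range. The means were 60.2 ± 2.84 and 56.3 ± 5.11 CPM (SD, n = 3), and the log2 fold change was -0.10 (SE 0.077, 95% interval -0.26 to 0.063, edgeR adjusted p 0.503), and the sign turned with offsets for GC content and length (0.015).

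Cdx1 (ENSMUSG00000024619, reverse strand, 61018862 to 61036199) encodes a caudal-type homeobox factor of the gut and the early embryo, and was at 0 counts in each of the 6 libraries. A count of 0 allows up to 3 counts, which corresponds to 0.197 to 0.297 CPM depending on the library and covers counting error only. Its start is 110.6 kb from that of Camk2a. No fold change can be given for it, and a small rise in CBP-ifKOs would not be detectable at this depth.

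Pdgfrb (ENSMUSG00000024620, forward strand, 61045150 to 61085061) encodes the receptor for platelet-derived growth factor on pericytes and other mural cells, and begins 119.5 kb from the Camk2a start. It was at 19.4, 22.5 and 21.6 CPM in Control and at 21.4, 16.8 and 18.3 CPM in CBP-ifKOs. CBP-ifKO replicates 2 and 3 were below the Control range and CBP-ifKO replicate 1 was inside it. The means were 21.2 ± 1.58 and 18.8 ± 2.38 CPM (SD, n = 3), with a log2 fold change of -0.18 (SE 0.11, 95% interval -0.42 to 0.053, edgeR adjusted p 0.375). It was -0.28 without CBP-ifKO replicate 1 (95% interval -0.52 to -0.033, edgeR adjusted p 0.188), -0.092 without CBP-ifKO replicate 2 and -0.086 with offsets. Markers of 2 cell types known to express Pdgfrb were counted beside it, against 4.99% of all genes called lower. Of 10 tested markers of pericytes and smooth muscle, Vtn, Cspg4 and Myh11 were called lower and 7 were not called, with 3 of the 10 at positive values, and the list was at 235.2 to 257.8 CPM summed in Control and 185.1 to 231.1 CPM in CBP-ifKOs. Of 6 tested markers of meningeal fibroblasts, all at negative values, Col3a1 and Dcn were called lower and 4 were not called. The fibroblast list summed to 76.2 to 82.5 CPM in Control and to 44.7 to 55.0 CPM in CBP-ifKOs. Neither sum overlapped between the groups, nor did that of perivascular macrophages and blood leukocytes given below. Among single genes tested 25.6% did not overlap, 13.9% with CBP-ifKOs lower. No defining marker of the pericyte and smooth muscle list or the fibroblast list was at 0 in all libraries. The part of these cells in the Pdgfrb values was not tested.

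Taking the 5 members on either side of Arsi and Camk2a together, 0 of 5 were called by edgeR, 1 was higher and 4 were lower, with a median log2 fold change of -0.11. With offsets for GC content and length 2 were higher and 3 lower, and the median was -0.009. Without CBP-ifKO replicate 2 the split was the same as with offsets and the median was -0.032, and without Control replicate 2 or CBP-ifKO replicate 3 all 5 were lower. Their unadjusted p-values were all above 0.05, against 21.2% of all genes tested below it. Over all genes the median log2 fold change was -0.003. Markers of microglia, which make much of the Cd74 of brain, were not called in 10 of 10 cases (287.6 to 321.7 CPM summed in Control, 277.5 to 299.4 CPM in CBP-ifKOs). Those of perivascular macrophages and blood leukocytes summed to 15.7 to 17.5 CPM and 12.5 to 14.99 CPM, with 3 of 9 tested, 0 called and Cd3e at 0 throughout.

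All genes in the table whose body lies within 500 kb of the Camk2a start were then examined. Of 30 such genes, 17 passed the filter and 1, Arsi, was called, against 6.39% of all genes tested. The other 16 had a median log2 fold change of -0.11, 4 of them higher and 12 lower, from -0.58 for Pde6a to 0.14 for Slc26a2. The median of all 17, -0.10, was -0.019 with offsets for GC content and length, and dropping CBP-ifKO replicate 2 or 3 gave -0.031 or -0.15. On neither side of Arsi did a tested neighbour reach its log2 fold change of 2.76 or its 95% lower bound of 2.18. Of all genes tested only Esr1 and Arsi were above 2, so this is not particular to the neighbourhood. The groups did not overlap for 6 of the 17, a share set beside 25.6% of all genes: Arsi, Hmgxb3 and Slc26a2 were higher, and Ndst1, Csf1r and Ppargc1b lower.

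Ndst1, a heparan sulfate sulfotransferase gene on the strand opposite to Rps14 whose body overlaps that of Rps14 without a shared exon base, came closest to the threshold among the 16. It was at 112.8, 112.3 and 122.0 CPM in Control and 100.6, 91.8 and 103.8 CPM in CBP-ifKOs, with each CBP-ifKO library lower (log2 fold change -0.23, edgeR adjusted p 0.0505, SE 0.067). Hmgxb3 (0.12, edgeR adjusted p 0.340) and Csf1r (-0.08, edgeR adjusted p 0.532) share 873 exon bases on opposite strands, and since the strand used in counting was not given in the sources used here, their reads may be mixed. Synpo, an actin-binding protein of dendritic spines, was at -0.23 (edgeR adjusted p 0.183), Smim3 at -0.27 (0.365), Dctn4 at -0.04 (0.784) and Rbm22 at -0.01 (0.953). Inside the Camk2a gene body, Mir7220 had 5, 4 and 8 counts in Control and 19, 5 and 13 in CBP-ifKOs, and Mir6982 had 6, 8 and 10 against 6, 5 and 10, both with overlapping groups and under the filter.

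Within 1000 kb, 27 genes were tested and Ablim3, an actin-binding LIM protein gene whose start is 986.2 kb downstream, was the only further call (log2 fold change -0.36, edgeR adjusted p 0.0401), in the direction opposite to Arsi. Over the whole of chromosome 18, 15 of 509 tested genes were called higher and 20 lower, or 6.88%, with a median log2 fold change of 0.018.

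The endogenous Esr1 locus on chromosome 10 was read in the same way, since the fusion is placed with the Camk2a promoter and not there. Of 17 genes whose body reaches into the 500 kb on either side, 11 were tested. Only Esr1 was called, against 6.39% of all genes tested. The other 10 had a median log2 fold change of 0.089, with 8 higher and 2 lower, between -0.25 for Zbtb2 and 0.24 for Rmnd1. Ccdc170, whose start is nearest to that of Esr1 among the tested genes, averaged 1.23 CPM in Control against 1.27 CPM in CBP-ifKOs. Syne1, which encodes the nuclear envelope protein nesprin-1, averaged 1723 and 1848 CPM, a log2 fold change of 0.10 (edgeR adjusted p 0.268). The groups did not overlap for 5 of the 11, each higher in CBP-ifKOs: Esr1, Syne1, Akap12, Gm21781 and Rmnd1. Among all genes tested 25.6% did not overlap, 11.8% with CBP-ifKOs higher. On chromosome 10 as a whole 9 of 867 tested genes were called higher and 40 lower, or 5.65%.

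**Figure D2:**
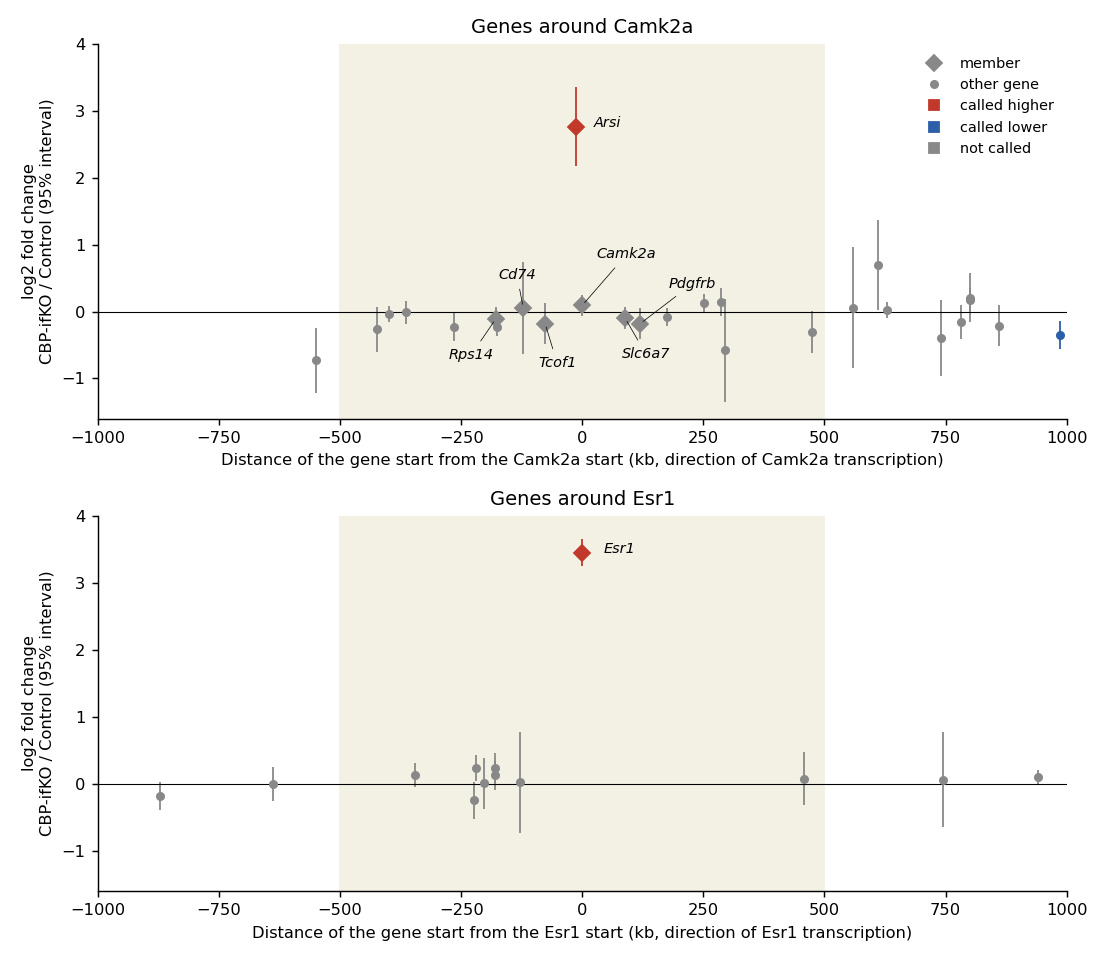
Log2 fold change of CBP-ifKOs over Control with its 95% interval for each tested gene, against the distance in kb of the gene's start from the start of Camk2a (upper panel) or Esr1 (lower panel), with 500 kb on either side shaded. Arsi at 2.76 and Esr1 at 3.45 stand alone, and the other genes of both shaded stretches lie between -0.58 and 0.24. Syne1 and Mthfd1l are drawn at their starts outside the shading although their bodies reach into it.

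To set levels of different genes side by side, CPM were divided by the exon length of each gene in kb. In Control the order per kb was Camk2a (259.7 ± 28.8), Rps14 (24.2 ± 2.45), Slc6a7 (17.5 ± 0.824), Pdgfrb (3.87 ± 0.288), Tcof1 (2.64 ± 0.038), Cd74 (0.907 ± 0.291), Esr1 (0.444 ± 0.027), Arsi (0.258 ± 0.088) and Cdx1 at 0 counts (CPM per kb, SD, n = 3). No neighbours in that order overlapped between their lowest and highest libraries. In CBP-ifKOs Esr1 stood at rank 4, with 4.88 ± 0.213 CPM per kb, above Pdgfrb (3.43 ± 0.434) and below Slc6a7 (16.3 ± 1.48). Arsi, at 1.79 ± 0.301 CPM per kb, had passed Cd74 (0.951 ± 0.261) and overlapped Tcof1 (2.36 ± 0.513). Camk2a (276.8 ± 17.4 CPM per kb) and Rps14 (22.4 ± 1.89 CPM per kb) stayed first and second. Where only some exons of a gene are transcribed, as in the fusion, the level per kb of the whole gene understates that of those exons.

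Ratios within a library do not depend on how libraries are scaled, and 11 were compared between the groups. Per kb, Arsi was at 0.058%, 0.140% and 0.107% of Camk2a in Control and at 0.562%, 0.601% and 0.777% in CBP-ifKOs, so that all 3 CBP-ifKO libraries were higher. The log2 ratio rose by 2.75 on the mean, and the exact permutation test gave p = 0.1 (two-sided, 0.157 after Benjamini-Hochberg adjustment over the 11), the smallest value that 3 against 3 libraries allow. Against Slc6a7, Tcof1, Cd74, Rps14 and Pdgfrb the log2 ratio of Arsi was higher by 2.94, 3.03, 2.76, 2.95 and 3.02, each with the same exact p and no overlap. All these ratios share Arsi, which was already called higher, as numerator. They restate the rise of Arsi and are not separate results.

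Esr1 per kb was at 0.169%, 0.202% and 0.148% of Camk2a in Control and at 1.66%, 1.95% and 1.70% in CBP-ifKOs (difference in log2 ratio 3.36, exact permutation p = 0.1). The ratio of Esr1 to Arsi per kb was 2.92, 1.45 and 1.38 in Control and 2.95, 3.24 and 2.19 in CBP-ifKOs. These overlapped, the difference in log2 ratio being 0.61 (exact permutation p = 0.2). That test cannot give a value below 0.1 here, so it does not decide whether Esr1 and Arsi rose to a different extent. The ratios of Camk2a to Slc6a7, Tcof1 and Pdgfrb were higher in CBP-ifKOs by 0.20, 0.28 and 0.27 on the log2 scale, each at an exact permutation p of 0.2.

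**Figure D3:**
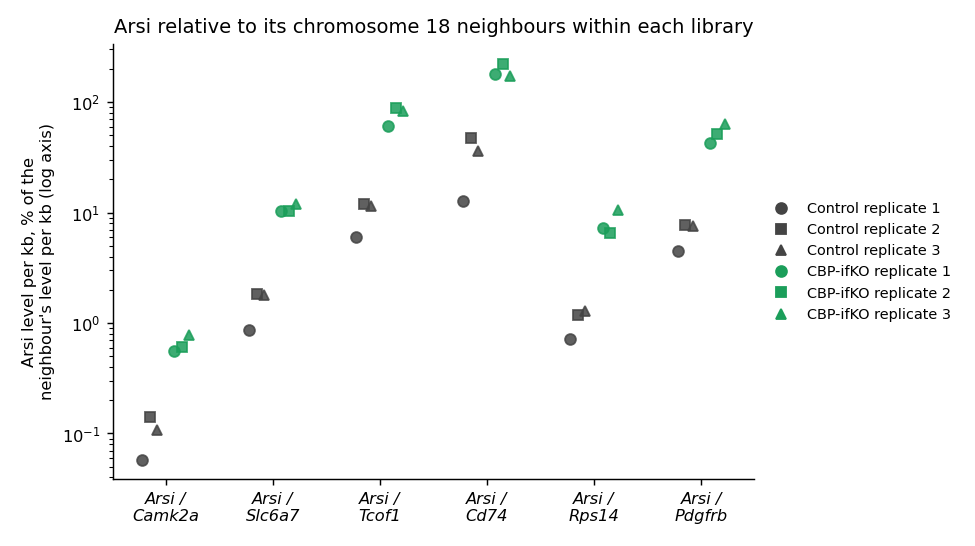
Level of Arsi per kb as a percentage of the level per kb of 6 chromosome 18 neighbours, on a log axis, with 1 symbol per library. In each of the 6 pairs the 3 CBP-ifKO libraries lie above the 3 Control libraries, for Camk2a at 0.562% to 0.777% against 0.058% to 0.140%.

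Other genes of the members' families were counted from lists, to be read against 1.4% of all genes called higher and 4.99% called lower. Among the estrogen receptor relatives, coactivators and estrogen-response genes other than Esr1, 10 were tested, 0 were called higher and 1 lower, with a median log2 fold change of -0.10. The gene called was Nrip1, which encodes a corepressor of nuclear receptors (-0.30, edgeR adjusted p 0.0183). Pgr, the progesterone receptor gene and an estrogen target in many tissues, averaged 44.2 ± 3.01 CPM in Control against 38.8 ± 2.20 CPM in CBP-ifKOs (-0.18, edgeR adjusted p 0.196). Esr2, for the second estrogen receptor, had 2 counts in all Control libraries together and 3 in all CBP-ifKO libraries, under the filter.

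In the CaMKII family, 8 genes besides Camk2a were tested, with 0 called higher, 2 called lower and a median of -0.09. Camk2n1, an inhibitor of the kinase, fell from 370.4 ± 13.8 to 282.9 ± 11.4 CPM (-0.39, edgeR adjusted p 0.000620) and Calm3, a calmodulin gene, had a log2 fold change of -0.33 (edgeR adjusted p 0.00427). The subunit genes Camk2b, Camk2d and Camk2g were at -0.07, 0.20 and -0.10 and were not called (edgeR adjusted p 0.556, 0.0911 and 0.347).

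Of 13 tested sulfatases and sulfatase activators besides Arsi, 0 were called higher and 1 lower, with a median of 0.031. Sulf1, an extracellular sulfatase gene, was the one called (-0.63, edgeR adjusted p 0.0479), and Arsj, the closest in name to Arsi, was at 0.13 (edgeR adjusted p 0.652). The values of the list without Arsi ran from -0.63 to 0.25.

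Among transporters of the SLC6 family, 9 were tested besides Slc6a7, all with negative values from -0.55 to -0.014, and 1, Slc6a17, was called lower (-0.24, edgeR adjusted p 0.0334). None of 13 partners of treacle and RNA polymerase I factors was called by edgeR, with a median of 0.12, and the pair with the highest level, Ubtf and Rrn3, were at -0.16 and 0.11. Of the MHC class II list besides Cd74, 3 of 10 genes were tested and 0 called, with H2-DMa at -0.23 and Ctss at 0.015, while H2-Aa, H2-Ab1 and H2-Eb1 had 12 to 26 counts over all 3 libraries of a group. For 28 other small-subunit ribosomal protein genes, 0 were called and the median was 0.070, from -0.17 to 0.43. Cdx2 and Cdx4 were at 0 counts in all libraries, like Cdx1. In the PDGF list, 5 genes besides Pdgfrb were tested and 2 called lower, Pdgfra (79.3 ± 4.43 to 60.7 ± 2.11 CPM, -0.38, edgeR adjusted p 0.00263), the receptor gene of oligodendrocyte precursors, and Pdgfb (-0.61, edgeR adjusted p 0.0156), the ligand gene of endothelial cells. Across these 9 lists, Esr1 and Arsi were the only genes called higher, and both are members around which the lists were built. Over all genes tested 1.4% were called higher, so few further calls would be looked for in lists of this size.

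The likeness of expression patterns was described by Pearson's r of log2 CPM over the 6 libraries, among 17432 genes with a mean of at least 1 CPM. Between Esr1 and Arsi r was 0.97, which mostly restates that both are high in the same 3 libraries. The genes most like Esr1 were Acp2, Gm11872, Eif5a2, Rnf130 and Golga1 (r from 0.989 to 0.995), but Acp2 only went from 76.8 ± 0.949 to 90.3 ± 0.248 CPM. Those most like Arsi were Frem3, Polr3a, Spty2d1, BC067074 and Cdc5l (r from 0.990 to 0.995), of which Frem3 went from 3.67 ± 0.906 to 10.7 ± 1.59 CPM. Camk2a had r of 0.39 with Esr1 and 0.33 with Arsi, and the genes most like it were Scaf8, Castor2, Gm42822, Grin1os and Prrc2c (r from 0.991 to 0.994). With 6 libraries many genes reach such values, and no test was made of them.

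**Figure D4:**
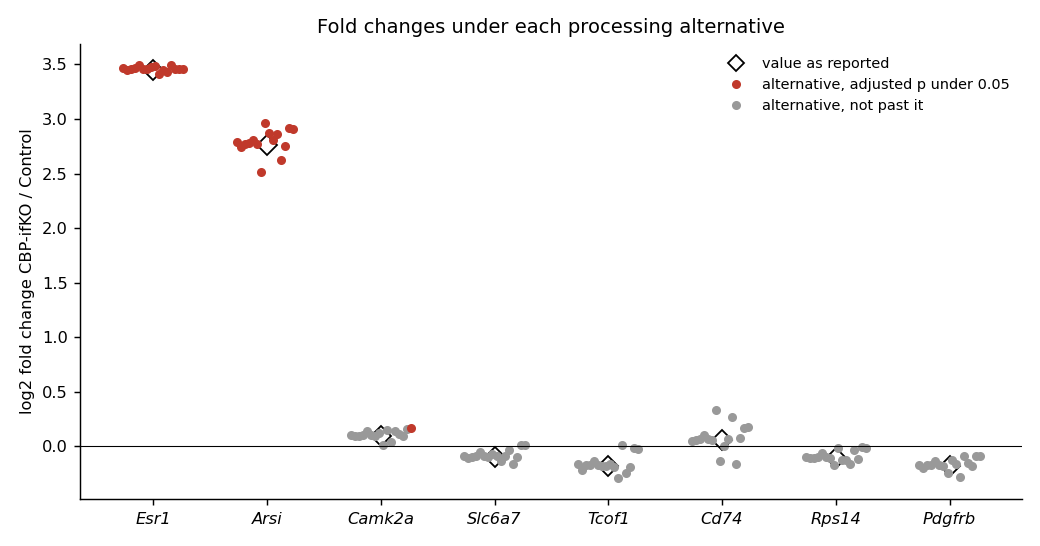
Log2 fold change of CBP-ifKOs over Control for the 8 tested members, with the reported value as an open diamond and each processing alternative, including those that leave out 1 library, as a dot coloured by whether its adjusted p was under 0.05. Esr1 stayed between 3.41 and 3.50 and Arsi between 2.51 and 2.96, and the other 6 members stayed between -0.29 and 0.34, with 1 coloured dot for Camk2a.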

How the data were processed

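Raw counts per gene were deposited for 6 hippocampal libraries, 3 per group. Per the study's methods and the submitters' processing notes, the authors checked reads of 50 bases with FastQC (version 0.11.8), trimmed them with Trim Galore (version 0.6.4), aligned them with STAR (version 2.6.1) to GRCm38, kept reads above a mapping-quality limit and used Rsubread to count those on exons of Ensembl genes. The deposited counts were not normalized. Groups came from the sample titles. Symbols and coordinates came from GENCODE (GRCm38), which matched 55230 of 55471 genes (99.57%). All genes were fitted together in R (version 4.3.3) by the quasi-likelihood F-test of edgeR (version 4.0.16), with TMM scaling, filterByExpr (minimum count 10, minimum total 15) and Benjamini-Hochberg adjustment over 17981 genes at a threshold of 0.05. The SE is the size of the log2 fold change divided by the square root of F. Tested on simulated data with 200 of 17981 genes changed by 1 on the log2 scale, edgeR recovered 86.5%, and 5.98% of its 184 calls were false. The simulation gave every gene the same dispersion and as many rises as falls. In the data 252 genes were called higher and 897 lower, so these rates need not hold there. The alternatives were DESeq2 (version 1.42.0), limma-voom (version 3.58.1), other scalings and filters, offsets for GC content and length, a replicate block, leaving out each library, and other windows.

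Members, gene lists, windows and tests were chosen with earlier results of these data known. Genes named are the members, the tested genes of both windows, the called genes of each list or else those with the highest level (not reported here for the ribosomal proteins), Crebbp, and the 5 genes most like Esr1, Arsi and Camk2a. Esr2, Pgr, Arsj, the CaMKII subunits, H2-Aa, H2-Ab1, H2-Eb1, Cdx2, Cdx4, 2 miRNA genes inside Camk2a, the called cell type markers and Ablim3 fall outside that rule and were named after their values were seen. No sequence is printed, since no table used here holds the transgene.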

Additional observations from a re-analysis of the deposited data

How the results depend on the processing

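Esr1 (3.41 to 3.50) and Arsi (2.51 to 2.96) kept their direction and were past the threshold in each alternative that gave a value. Arsi was not tested where each library had to hold 10 counts, which left 1 member called, and Cd74 had no adjusted p in DESeq2. Camk2a passed only with the replicate block and offsets together (0.17), which called 1839 genes in all (717 higher, 1122 lower), against 1149 (252 and 897). Slc6a7 turned to 0.015 with offsets and to 0.017 with block and offsets. Leaving out 1 library gave 0.012 to 0.15 for Camk2a, -0.16 to -0.032 for Slc6a7, -0.29 to 0.013 for Tcof1, -0.17 to -0.016 for Rps14, -0.28 to -0.092 for Pdgfrb and -0.17 to 0.34 for Cd74, so the sign of Tcof1 and Cd74 rests on single libraries (0.013 without CBP-ifKO replicate 2 for Tcof1, for Cd74, -0.13 without Control replicate 2 and -0.17 once CBP-ifKO replicate 3 was dropped). Genes called overall then ran from 498 to 1326, with 546 once Control replicate 3 was left out and 498 and 526 after dropping CBP-ifKO replicates 2 and 3. Calls split into 514 higher and 667 lower when libraries were scaled by totals only and into 371 and 727 with offsets. Within 500 kb of Camk2a, the 1 gene called where each library had to hold 10 counts was Ndst1, lower, Arsi not being tested there, and 2 genes were called with limma-voom, without a filter, with the replicate block (Arsi and Ndst1) and with offsets (Arsi and Hmgxb3), 3 with block and offsets (Arsi, Camk2a and Hmgxb3), 2 within 1 Mb, and 1 to 2 without 1 library (Ndst1 added without Control replicate 2, Synpo without CBP-ifKO replicate 1). Around Esr1, 2 were called with block and offsets (Esr1 and Syne1). The cause of these changes was not tested. Replicate numbers were shared by the groups, and same-numbered libraries correlated at 0.077, 0.037 and 0.0022 after group means were removed. Libraries of different number were not compared in this way, so these values do not decide whether the numbers pair libraries. The replicate block alone called 1210 genes. Counts limited Arsi, Cd74 and Cdx1 most.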
